A study of Mus musculus with 6 samples.

Results

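The genes described here are 10 genes of the amino acid response that the transcription factor ATF4 directs: Atf4, Trib3, Asns, Chac1, Slc7a5, Mthfd2, Psat1, Phgdh, Slc7a11 and Sesn2. They were taken by exact symbol, and all 10 were among the 38926 symbols of the deposited table. The set was selected on measured values, because the FPKM of Trib3 and Asns was higher and that of Slc7a5 lower in the libraries labelled knockout. The difference between genotypes in these 10 genes is therefore given as a description, and test calls among them are not read as support. RNA was sequenced from 3 libraries labelled Drd2 Drd3 double knockout (KO) and 3 labelled wild type (WT), all from C57BL/6 mice 8 to 12 weeks old that had received no treatment. The cells were Lin- Sca1+ cKit+ (LSK) cells sorted from femur and tibia marrow, a gate that holds blood stem cells and multipotent progenitors. The labels name neither the knockout alleles nor whether animals were pooled, and they do not state which animals the replicates came from, so the tests measure the spread between these libraries, which may in part be technical.

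When an amino acid runs short, or when the endoplasmic reticulum, haem supply or mitochondria are under stress, kinases phosphorylate the translation factor eIF2alpha. General protein synthesis then slows while the mRNA of Atf4 is translated more, so the level of Atf4 mRNA is not a measure of ATF4 protein. ATF4 pairs with C/EBP factors on C/EBP-ATF response elements and raises genes for amino acid uptake, amino acid synthesis and serine-fed one-carbon metabolism, together with genes that damp the response. Blood stem cells are known to keep protein synthesis low and to be sensitive to this pathway.

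The letters of that response element are shown for the members whose promoter windows held them, because they are a feature such genes are known for. For the same reason, the share of members that hold them is a description and lends no support to the choice of the set. RefSeq promoter windows (build GRCm38.p6, 250 bases before to 50 after a start) were available for 9 of the 10 members. TGATGNAA, where N is any base, was searched on both strands, together with the stricter TGATGCAA, every copy of which is also a copy of the first. Capitals mark the matches, on either strand, and each sequence is written 5′ to 3′ along the gene.
Trib3 (chr2:152344028-152344057, minus strand): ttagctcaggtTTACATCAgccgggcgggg
Asns (chr6:7693214-7693243, minus strand): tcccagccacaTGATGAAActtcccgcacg
Chac1 (chr2:119351038-119351067, plus strand): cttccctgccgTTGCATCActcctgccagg
Slc7a11 (chr3:50443642-50443690, minus strand): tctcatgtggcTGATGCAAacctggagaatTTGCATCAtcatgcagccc
The match began 23 bases before the RefSeq start in Asns, 193 before it in Chac1 and 66 before it for the first of the 2 copies in Slc7a11. In Trib3 it began 14 bases after the RefSeq start, while GENCODE M21 places the Trib3 start further on, at 152344032, so that the match lies before that start. The Asns match, in turn, lies after the GENCODE start at 7693254. Thus 4 of 9 members with a window held TGATGNAA, against 1219 of 27025 genes with a window (4.51%), and 2 of 9 held TGATGCAA, against 279 of 27025 (1.03%). Among the 8065 genes with a window that passed the FPKM filter used below, the shares were 2.67% and 0.72%. The windows of Atf4, Mthfd2, Psat1, Phgdh and Sesn2 held neither set of letters. A match is a description of the letters and not a binding site, and the absence of one refers to this window alone.

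The deposited values are FPKM, reads per kilobase of gene at a common depth set by the authors, so levels of different genes can be set side by side. Whole reads recovered from these values came to 5243325 to 7143202 in the KO-labelled libraries and 5903055 to 6201265 in the WT-labelled ones. Drd2 was listed at 0 in all 6 libraries, whereas Drd3 was listed at 1.62, 3.08 and 3.04 FPKM in KO-labelled replicates 1, 2 and 3 and at 0 in the WT-labelled ones. Drd3 thus goes against the labels, which do not state the deleted stretch, and every direction below is one between libraries as labelled. KO-labelled replicates 1 and 3 also stood apart from the other 4. They held Xist, the X-inactivation RNA, at 1.96 and 2.01 FPKM, against 0 in the other 4, so the 3 KO-labelled libraries did not all come from the same animal. They lacked the Y-linked transcript Ddx3y, which was at 15.1 FPKM in KO-labelled replicate 2 and at 12.52 to 13.95 FPKM in the WT-labelled ones. By Xist and Ddx3y, KO-labelled replicates 1 and 3 read as female and the other 4 as male, so sex differed in part along with the genotype label. Replicates 1 and 3 also held 3182 and 1173 FPKM of the immunoglobulin light chain gene Igkc, against 4.93 FPKM in KO-labelled replicate 2 and 1.98 to 2.48 FPKM in the WT-labelled ones. Among markers of the sorted cells, Kit was at 82.5 to 129 FPKM in the KO-labelled libraries and 105 to 150 FPKM in the WT-labelled ones, and Ly6a, which encodes Sca1, at 114 to 161 FPKM and 110 to 129 FPKM in the same order.

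The 10 genes differed in direction between the groups, and the ranges of their summed level overlapped. The sum was 406, 407 and 361 FPKM in the KO-labelled libraries and 384, 402 and 393 FPKM in the WT-labelled ones. Phgdh made up 49.6 ± 2.2% of this sum in the KO-labelled libraries and 58.2 ± 0.5% in the WT-labelled ones (SD, n = 3 each). With 8 members at a mean of at least 1 FPKM, limma's test on log2(FPKM + 1) across 11371 genes placed 2 above its threshold as higher (Trib3 and Asns) and 1 as lower (Slc7a5) at a Benjamini-Hochberg adjusted p under 0.05. Over all genes tested 5.48% were called higher and 5.43% lower, and since these calls come from the contrast that chose the set, nothing is read from the count. It was 2 in place of 3, without Slc7a5, when any one WT-labelled library or both KO-labelled replicates 1 and 3 were left out. Under quantile normalization the count was 4, with Phgdh called lower as well. The groups did not overlap in 2 tested members as higher and in 3 as lower (Slc7a5, Mthfd2 and Phgdh), where 16.2% and 16.6% of all tested genes did so. In bulk libraries, fewer cells of a type and less RNA per cell cannot be told apart.

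**Figure D1:**
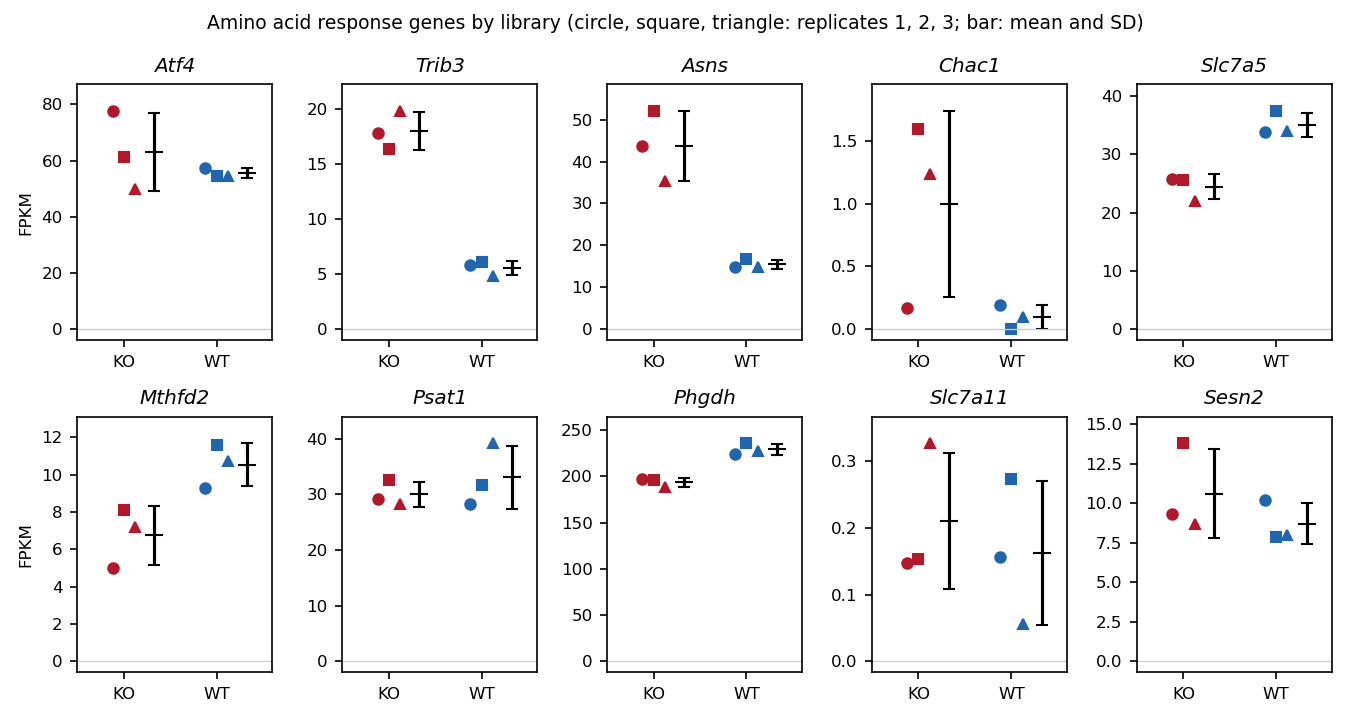
FPKM (y axis, linear, a scale per gene) of each member in the 3 KO-labelled libraries (red) and the 3 labelled WT (blue), with symbols for replicates and bars for mean and SD. Trib3 and Asns stand apart upward, Slc7a5, Mthfd2 and Phgdh downward, and the other 5 overlap.

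Atf4 (chr15:80255184-80257541, plus strand, GENCODE M21, build GRCm38, which is mm10) encodes the factor itself. Its mRNA was at 77.7, 61.2 and 50.03 FPKM in KO-labelled replicates 1, 2 and 3, against 57.5, 54.6 and 54.5 FPKM in the WT-labelled ones. The KO-labelled libraries lay on both sides of the WT-labelled ones, and their spread was wider, 63.0 ± 13.9 FPKM against 55.5 ± 1.7 FPKM (SD, n = 3 each). The log2 fold change was 0.16 ± 0.15 (SE). It was -0.01 without KO-labelled replicate 1, so the sign rests on that library.

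Trib3 (chr2:152337422-152344032) encodes a pseudokinase that ATF4 induces and that in turn restrains ATF4 and the kinase AKT. It was at 17.9, 16.4 and 19.9 FPKM in the KO-labelled libraries, against 5.80, 6.10 and 4.82 FPKM in the WT-labelled ones. Every KO-labelled library lay well above every one labelled WT. The means were 18.0 ± 1.7 and 5.58 ± 0.67 FPKM, a log2 fold change of 1.54 ± 0.14 (SE) or 3.24 in the ratio of means, and rested on 744 recovered reads in the KO-labelled libraries and 217 in the WT-labelled ones. Per unit of Atf4 mRNA, Trib3 stood at 0.230, 0.268 and 0.397 in the KO-labelled libraries and 0.101, 0.112 and 0.0885 in the WT-labelled ones. The library lowest in Atf4 among the KO-labelled ones, replicate 3, was the highest in Trib3.

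Asns (chr6:7675169-7693254) encodes asparagine synthetase, which makes asparagine from aspartate and glutamine and is the classical gene of the amino acid response. It was at 43.7, 52.1 and 35.4 FPKM in the KO-labelled libraries, against 14.9, 16.8 and 14.7 FPKM in the WT-labelled ones. The groups lay far apart, and the spread was again wider among the KO-labelled ones (43.7 ± 8.4 and 15.5 ± 1.1 FPKM). The log2 fold change was 1.43 ± 0.14 (SE), or 2.82 in the ratio of means, on 2373 and 776 recovered reads. By mean level Asns held rank 3 of the 10 genes in the KO-labelled libraries, after Phgdh and Atf4, and rank 5 in the WT-labelled ones. Its values overlapped those of Atf4 in the KO-labelled libraries but not in the WT-labelled ones.

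The enzymes that make serine and pass its carbon on did not share the direction of Asns. Phgdh (chr3:98313170-98339990), the first enzyme of serine synthesis, was the most abundant member, with 197, 196 and 188 FPKM in the KO-labelled libraries and 224, 236 and 227 FPKM in the WT-labelled ones. Every KO-labelled library lay below every one labelled WT, by a narrow margin (194 ± 5 and 229 ± 6 FPKM; log2 fold change -0.24 ± 0.08 SE). Psat1 (chr19:15904678-15947337), the aminotransferase of the next step, had 29.1, 32.6 and 28.3 FPKM in the KO-labelled libraries and 28.3, 31.7 and 39.2 FPKM in the WT-labelled ones. These values overlapped, and the log2 fold change of -0.13 ± 0.13 (SE) became 0.00 without WT-labelled replicate 3. Mthfd2 (chr6:83305691-83325908) encodes a mitochondrial dehydrogenase that oxidises folate-bound carbon from serine. It had 4.99, 8.08 and 7.18 FPKM in the KO-labelled libraries and 9.30, 11.6 and 10.7 FPKM in the WT-labelled ones. All KO-labelled libraries were below all labelled WT, with a log2 fold change of -0.59 ± 0.18 (SE), which was -0.34 with KO-labelled replicate 2 as the sole KO library.

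Of the pair of amino acid exchangers, Slc7a5 (chr8:121881150-121907694) encodes LAT1, which brings leucine and other large neutral amino acids into the cell. It was at 25.8, 25.6 and 22.1 FPKM in the KO-labelled libraries, against 33.8, 37.5 and 33.9 FPKM in the WT-labelled ones. The groups did not overlap (24.5 ± 2.1 and 35.1 ± 2.1 FPKM), and the log2 fold change was -0.50 ± 0.11 (SE). The fold change was -0.53, -0.46 and -0.53 without WT-labelled replicates 1, 2 and 3, and -0.44 without KO-labelled replicates 1 and 3. LAT1 works as a pair with the heavy chain encoded by Slc3a2, which had 162, 133 and 120 FPKM in the KO-labelled libraries and 112, 114 and 116 FPKM in the WT-labelled ones. Its groups did not overlap, on the other side from Slc7a5, and it was not called (log2 fold change 0.26 ± 0.12 SE, but 0.15 without KO-labelled replicate 1 and 0.36 without KO-labelled replicate 3). The light chain therefore stood at 0.159, 0.192 and 0.184 of the heavy chain mRNA in the KO-labelled libraries and at 0.3005, 0.328 and 0.294 in the WT-labelled ones.

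Slc7a11 (chr3:49892526-50443614) encodes xCT, which exchanges glutamate for cystine, the source of cysteine for glutathione. It was barely detected, at 0.148, 0.154 and 0.328 FPKM in the KO-labelled libraries (12, 12 and 20 recovered reads) and 0.157, 0.273 and 0.0569 FPKM in the WT-labelled ones (11, 18 and 4 reads). The ranges overlapped, and the ratio of reads at equal depth was 1.25, with a counting interval of 0.779 to 2.03 (95%, exact binomial), from reads that may be a lower bound because the gene length they imply is not the annotated one. Chac1 (chr2:119351229-119354381), an enzyme that breaks glutathione down, was also too low for the test, at 0.169, 1.59 and 1.24 FPKM in the KO-labelled libraries and 0.196, 0 and 0.0978 FPKM in the WT-labelled ones. These values stand for 2, 18 and 11 reads and for 2, 0 and 1 reads. Replicates 2 and 3 of the KO-labelled ones were above all others, while replicate 1 lay within the WT range. The ratio was 9.70 with a counting interval of 3.03 to 49.6, which covers counting error alone and not the spread between libraries.

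Sesn2 (chr4:132492032-132510501) encodes sestrin 2, a leucine sensor that holds back mTORC1 when leucine is short. It was at 9.33, 13.8 and 8.70 FPKM in the KO-labelled libraries, against 10.2, 7.90 and 8.02 FPKM in the WT-labelled ones. Only KO-labelled replicate 2 lay above the WT range. The log2 fold change was 0.24 ± 0.19 (SE), 0.62 with that library as the sole KO library and 0.05 without it.

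**Figure D2:**
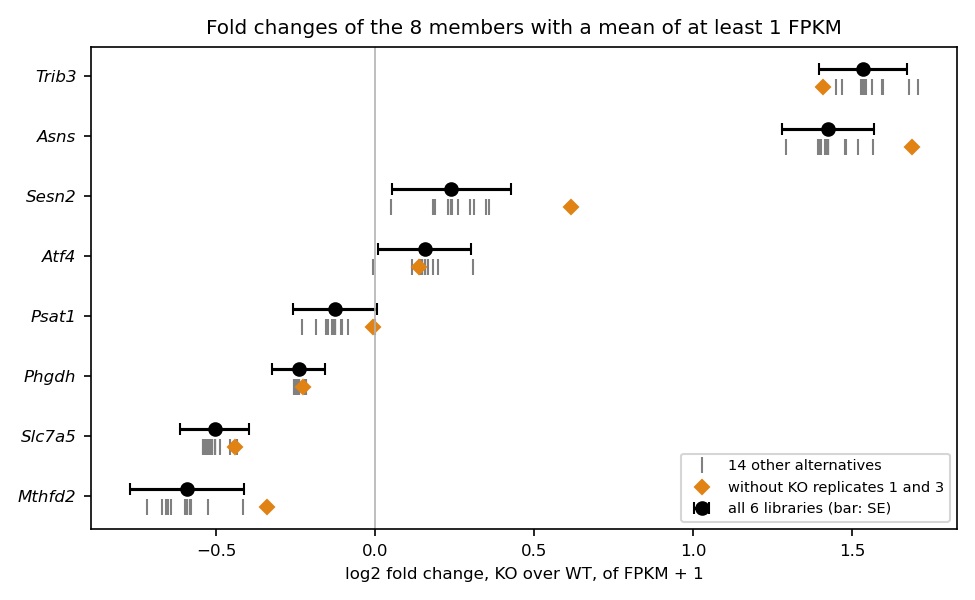
Log2 fold change of FPKM + 1, KO over WT (x axis), of the 8 members tested, from all 6 libraries (black, bar SE), with KO-labelled replicate 2 as the sole KO library (orange) and under 14 other settings (grey). Trib3 and Asns lie between 1.29 and 1.71 throughout, and Atf4 and Psat1 each cross 0.

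Beyond the 10 members, 150 other genes of the pathway were examined in 9 lists, of which 128 had a mean of at least 1 FPKM. The test called 9 of them higher (7.03%) and 7 lower (5.47%) in the KO-labelled libraries, against 5.48% and 5.43% of all genes tested, so the shares were close to the background. Their median log2 fold change was 0.0025, and that of all genes tested was -0.0021. The 4 kinases that phosphorylate eIF2alpha were not called. Eif2ak1, the haem-regulated kinase, was at 23.4 ± 1.2 FPKM in the KO-labelled libraries and 20.9 ± 1.9 FPKM in the WT-labelled ones. Eif2ak2, activated by double-stranded RNA, was at 5.34 ± 0.82 and 6.15 ± 1.17 FPKM in the same order. Eif2ak3 (PERK), the kinase of the endoplasmic reticulum, was at 2.91 ± 0.98 FPKM in the KO-labelled libraries and 4.24 ± 0.95 FPKM in the WT-labelled ones, and Eif2ak4 (GCN2), which senses uncharged tRNA, at 3.28 ± 0.72 and 4.61 ± 0.61 FPKM (SD, n = 3 each). In this list of 14 genes, 1 rose, Eif2b4, a subunit of the exchange factor that eIF2alpha phosphorylation blocks, with a log2 fold change of 0.47 ± 0.12 SE (limma adjusted p = 0.0409; 0.0249 to 0.163 over its alternatives). Ppp1r15a, the inducible phosphatase subunit that reverses the phosphorylation, was at 202 ± 45 and 169 ± 11 FPKM and was not called (log2 fold change 0.23). It was 0.08 without KO-labelled replicate 1, and it was called without KO-labelled replicate 3, at 0.41 (limma adjusted p = 0.0342; 0.0342 to 0.768 over its alternatives).

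Among 6 tested partner and downstream transcription factors, 1 rose. Cebpb, which encodes a C/EBP partner of ATF4, was at 1297, 1175 and 1021 FPKM in the KO-labelled libraries, against 837, 903 and 694 FPKM in the WT-labelled ones. No KO-labelled library fell within the WT range (log2 fold change 0.52 ± 0.13 SE, limma adjusted p = 0.0357; 0.00657 to 0.140 over its alternatives). Ddit3 (CHOP), the factor that acts with ATF4 under lasting stress, was at 13.8 ± 4.0 FPKM in the KO-labelled libraries and 11.9 ± 0.7 FPKM in the WT-labelled ones, and its fold change of 0.17 became -0.01 without KO-labelled replicate 1. Cebpg, a further partner, was at 13.4 ± 0.3 and 15.5 ± 1.8 FPKM and was not called. Atf5, which is regulated much as Atf4 is, had 20 and 12 recovered reads in all and was not tested.

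Of 15 other ATF4 target genes tested, 3 rose and 1 fell. Eif4ebp1, whose protein holds back cap-dependent translation, was at 182, 183 and 150 FPKM in the KO-labelled libraries, against 103, 97.0 and 115 FPKM in the WT-labelled ones. The log2 fold change was 0.70 ± 0.11 SE (limma adjusted p = 0.00595), and the call held under all 15 alternatives (0.00214 to 0.0432). Trib2, a relative of Trib3, was at 5.56, 8.90 and 4.85 FPKM in the KO-labelled libraries, against 2.31, 3.06 and 2.28 FPKM in the WT-labelled ones (1.04 ± 0.22 SE, limma adjusted p = 0.0195; 0.00838 to 0.0739). Trib1 was at 10.5 ± 2.2 and 12.6 ± 2.6 FPKM and was not called. Map1lc3b, an autophagosome protein, rose by 0.47 on the log2 scale and Pmaip1, which encodes the cell death protein NOXA, fell by 0.70 (limma adjusted p = 0.0126 and 0.0413, and at most 0.0639 and 0.232 under any alternative).

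Of 14 tested amino acid transporters other than the members, 3 fell and 1 rose, and the median log2 fold change was -0.25. Slc38a2 (SNAT2), a glutamine and alanine importer that the amino acid response induces, was at 59.0, 64.3 and 73.5 FPKM in the KO-labelled libraries, against 98.5, 95.9 and 85.5 FPKM in the WT-labelled ones. No values overlapped (-0.51 ± 0.11 SE, limma adjusted p = 0.0210; 0.0110 to 0.0977 over its alternatives). Slc38a1, a related importer, and Slc43a2 (LAT4) fell by 0.42 and 0.62 on the log2 scale, and Slc43a1 (LAT3) rose by 0.52 (limma adjusted p = 0.0343, 0.0475 and 0.0408; at most 0.129, 0.187 and 0.167 under any alternative). Slc1a5 (ASCT2), a glutamine importer, was at 12.3, 26.9 and 35.2 FPKM in the KO-labelled libraries, against 45.9, 44.9 and 41.8 FPKM in the WT-labelled ones. Its groups did not overlap, the KO-labelled libraries were far apart among themselves, and it was not called (-0.93 ± 0.30 SE, limma adjusted p = 0.0801; 0.0249 to 0.207 over its alternatives). Without KO-labelled replicate 1 it was not called and stood at -0.51 (limma adjusted p = 0.0643). It was called without KO-labelled replicate 3, at a log2 fold change of -1.23, without KO-labelled replicates 1 and 3, at -0.70, and by voom, at -0.98. Slc3a2 and Slc7a1, the cationic amino acid carrier, were not called.

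In 14 tested serine, glycine and one-carbon enzymes, 1 fell and limma called 0 higher (1 at an unadjusted p under 0.05, 0 by voom). Mthfd1l, the mitochondrial synthetase that follows Mthfd2, was at 15.8, 19.3 and 16.7 FPKM in the KO-labelled libraries, against 25.6, 26.9 and 21.6 FPKM in the WT-labelled ones. It thus lay on the same side as Mthfd2 (-0.49 ± 0.13 SE, limma adjusted p = 0.0397; 0.0260 to 0.240 over its alternatives). Psph, the last enzyme of serine synthesis, was at 13.7 ± 0.7 and 15.3 ± 1.0 FPKM, and Shmt2, which splits serine in mitochondria, at 127 ± 8 and 133 ± 4 FPKM, with the KO-labelled libraries first, and neither was called. Of 16 other amino acid enzymes, 2 rose: Glul (glutamine synthetase) by 0.55 and Oat (ornithine aminotransferase) by 0.48 on the log2 scale (limma adjusted p = 0.0408 and 0.0368; at most 0.161 and 0.143 under any alternative). Aldh18a1, which starts proline synthesis, was at 52.3 ± 5.9 and 47.6 ± 0.7 FPKM and was not called. None of the 12 cytosolic aminoacyl-tRNA synthetases, several of which ATF4 is known to induce, was called by limma, and their log2 fold changes ran from -0.18 to 0.30. At an unadjusted p under 0.05 the count was 1 (Nars, which charges the asparagine tRNA, named after its value was seen), and voom called 0.

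Of 24 genes of mTORC1 amino acid sensing, 2 fell: Tsc2, whose product restrains mTORC1, and Rraga, a Rag GTPase that activates it. At an unadjusted p under 0.05 in limma, 3 were higher (Rragc, Lamtor5 and Flcn) and 2 lower, and voom called 2 higher and 1 lower. Tsc2 was at 6.15, 5.39 and 6.22 FPKM in the KO-labelled libraries, against 9.58, 10.2 and 10.6 FPKM in the WT-labelled ones (-0.69 ± 0.13 SE, limma adjusted p = 0.0132; at most 0.0678 over its alternatives). Rraga fell by 0.42 on the log2 scale (limma adjusted p = 0.0461; 0.0273 to 0.150). The other sestrin genes, Sesn1 at 80.8 ± 18.4 and 66.8 ± 3.8 FPKM and Sesn3 at 3.37 ± 0.78 and 3.34 ± 0.55 FPKM in KO-labelled and WT-labelled libraries, were not called. Of 13 glutathione and NRF2 target genes, 1 rose, Gsr (glutathione reductase), by 0.38 (limma adjusted p = 0.0408; 0.0269 to 0.161). Across the 9 lists, only Eif4ebp1 of the 16 called genes kept its call under all 15 alternatives. Without WT-labelled replicates 1, 2 and 3 the higher calls were 1 each, and the lower ones 1, 0 and 1. Without KO-labelled replicates 1, 2 and 3 the higher calls were 5, 4 and 11 and the lower ones 1, 3 and 8, and without both KO replicates 1 and 3 there were 3 and 2.

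**Figure D3:**
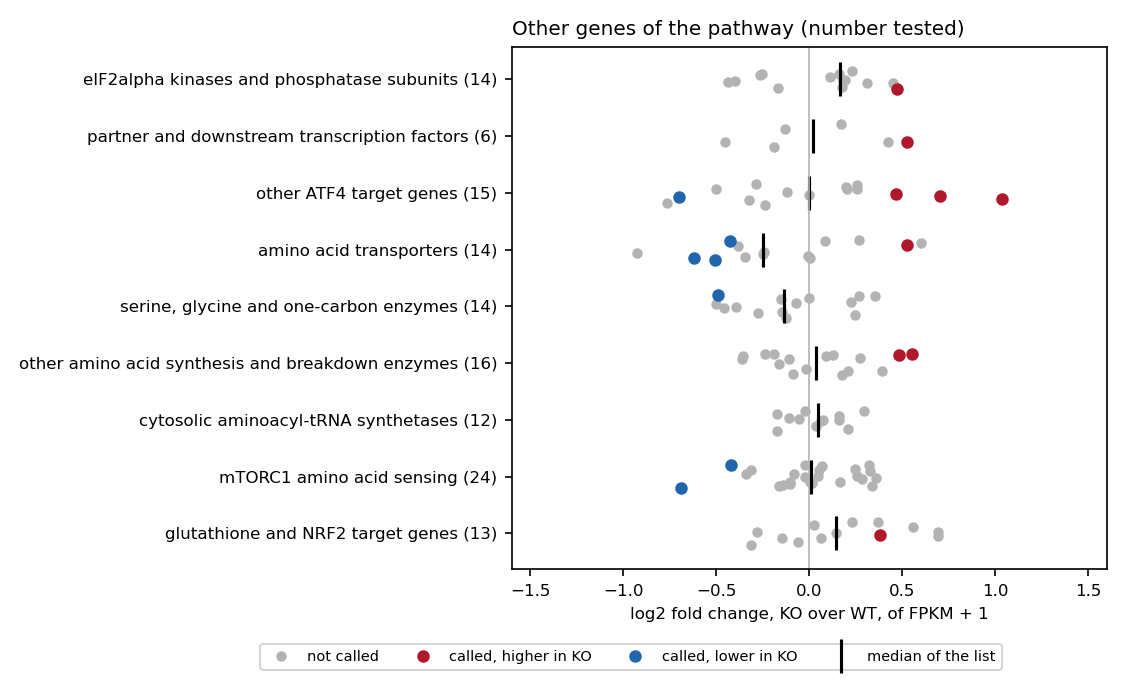
Log2 fold change of FPKM + 1, KO over WT (x axis), of each tested gene in 9 pathway lists (rows, number tested in parentheses), with called genes in red (higher) or blue (lower), the rest in grey and list medians as black ticks. The synthetases hold no called gene, and the transporters have the lowest median, -0.25.

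The response element letters were counted in the pathway genes as well. Of 118 with a window, 17 held TGATGNAA (14.4%) and 14 held TGATGCAA (11.9%). The shares were 4.51% and 1.03% over all genes with a window, and 2.67% and 0.72% over those that passed the FPKM filter. As the lists were chosen as genes of this pathway, their shares are a description and lend no support to the choice. TGATGNAA was in 0 of 7 genes called higher with a window and in 0 of 5 called lower, in 15 of 90 that were not called and in 2 of 16 that were not tested. Groups of 7 and 5 genes are too small for a count of 0 to be read against a share of 14.4%. TGATGCAA was in 12 genes that were not called, with log2 fold changes of -0.76 (Vldlr) to 0.60 (Slc7a7). The stretches of the 2 lowest and the 2 highest of them are shown, because they hold the stricter letters that the windows of Trib3 and Asns lack. Vldlr encodes a lipoprotein receptor, Atf3 and Nupr1 encode stress-induced regulators of transcription, and Slc7a7 encodes a light chain that exchanges cationic for neutral amino acids.
Vldlr (chr19:27216809-27216838, plus strand): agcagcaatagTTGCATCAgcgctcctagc
Atf3 (chr1:191183425-191183454, minus strand): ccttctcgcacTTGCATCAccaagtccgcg
Nupr1 (chr7:126625562-126625591, minus strand): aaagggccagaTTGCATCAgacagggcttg
Slc7a7 (chr14:54417927-54417956, minus strand): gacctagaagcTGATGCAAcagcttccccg
The log2 fold changes of the middle pair were -0.45 for Atf3 and 0.42 for Nupr1.

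Markers of other cells and of division moved with the same contrast. Of 11 tested erythroid genes, 7 were called higher (5 to 9 over the alternatives) and 0 lower (0 at an unadjusted p under 0.05 and by voom) in the KO-labelled libraries, and the summed level of the 12 listed was 1170, 2194 and 1002 FPKM there, against 707, 492 and 762 FPKM in the WT-labelled ones. The library highest in erythroid genes, KO-labelled replicate 2, was also the highest in Asns and the lowest of its group in Trib3. Of 10 proliferation genes, 6 were called lower (1 without WT-labelled replicate 2 or without KO-labelled replicates 1 and 3, 2 without WT-labelled replicate 3, 3 without KO-labelled or WT-labelled replicate 1), with sums of 525, 631 and 519 FPKM in the KO-labelled libraries and 726, 794 and 797 FPKM in the WT-labelled ones. Slc7a5 lay on the same side. The test called 2 of 6 genes of mast cells and basophils higher, Cma1 and Tpsb2. Cma1 had 192 recovered reads in the KO-labelled libraries and 3 in the WT-labelled ones, and Tpsb2 had 161 and 0. Cpa3, Mcpt8, Fcer1a and Ms4a2 were not called (log2 fold changes 0.11, -0.33, 1.21 and 0.18). The sums over the 7 listed overlapped. They were 131, 60.9 and 80.9 FPKM in the KO-labelled libraries and 53.1, 89.7 and 57.9 FPKM in the WT-labelled ones. Of 6 LSK surface genes, Slamf1 was called higher and Cd34 and Flt3 lower, and the sums were 945, 761 and 901 FPKM in the KO-labelled libraries and 1196, 1202 and 1126 FPKM in the WT-labelled ones.

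Several neutrophil granule genes were low in KO-labelled replicates 2 and 3. Limma called 0 of 7 tested neutrophil genes, with a median log2 fold change of -1.31, while 4 were lower at an unadjusted p under 0.05 (S100a8, S100a9, Camp and Ngp) and voom called 3 lower. Camp was at 15.5, 0.482 and 2.15 FPKM in the KO-labelled libraries, against 17.6, 11.4 and 20.0 FPKM in the WT-labelled ones, so that replicates 2 and 3 of the KO-labelled libraries were low and replicate 1 was not. The sum over the 8 listed, mostly Mpo, was 1109, 746 and 446 FPKM in the KO-labelled libraries and 714, 710 and 696 FPKM in the WT-labelled ones. Limma called 1 of 3 tested macrophage and dendritic cell genes lower, and 1 of 5 endothelial and stromal ones. In the T and NK list it called 1 of 3 lower and 1 higher. Those called lower were Cd68, Cxcl12 and Nkg7, by 0.69, 0.86 and 0.72 on the log2 scale. Klrb1c, of the T and NK list, was higher by 1.16 (limma adjusted p = 0.00988, 0.0494, 0.0193 and 0.0195 in this order). Not called were Csf1r (0.05), C1qb (0.99), Pecam1 (-0.18), Emcn (0.23), Col1a2 (-0.08), Lepr (-0.26) and Cd4 (-0.34). Nkg7 was at 187 to 291 FPKM in the KO-labelled libraries and 352 to 417 FPKM in the WT-labelled ones. The T cell gene Cd3e had 1 and 4 recovered reads in the same order, and Klrb1c had 148 and 31. Which cells the Nkg7 level came from was not tested. Cd3g, of T cells, was listed at 0 in all 6 libraries. Of 3 tested B cell genes limma called 0, with 0 at an unadjusted p under 0.05 and 0 by voom.

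Of 8 tested plasma cell genes limma called 0, as did voom, while 4 were higher at an unadjusted p under 0.05 (Igj, Mzb1, Fkbp11 and Igkc) and 2 were called without KO-labelled replicate 2. The summed level of the 11 listed was 3401, 168 and 1431 FPKM in the KO-labelled libraries and 185, 178 and 165 FPKM in the WT-labelled ones, with Igkc at 3182, 4.93 and 1173 FPKM in the KO-labelled libraries. Igj was at 39.8, 0.239 and 33.8 FPKM in the KO-labelled libraries and 0.530, 0.282 and 0 FPKM in the WT-labelled ones, so it was high in the same libraries as Igkc. Sdc1 lay on the other side, with a log2 fold change of -0.33. Tnfrsf17, which encodes the plasma cell receptor BCMA, had 2 and 1 recovered reads in all, too few to read. It was listed at 0 in KO-labelled replicates 2 and 3 and in WT-labelled replicates 1 and 3. In KO-labelled replicate 2, with Igkc at 4.93 FPKM, Trib3 was at 16.4 FPKM and Asns at 52.1 FPKM. This is 1 library and the values are among those that chose the set. The part of plasma, erythroid, mast, neutrophil, macrophage, stromal, T and NK and proliferating cells in the results above was not tested. Nor was the part of sex, or of the balance of cells within the LSK gate, where Slamf1, Cd34 and Flt3 differed.

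**Figure D4:**
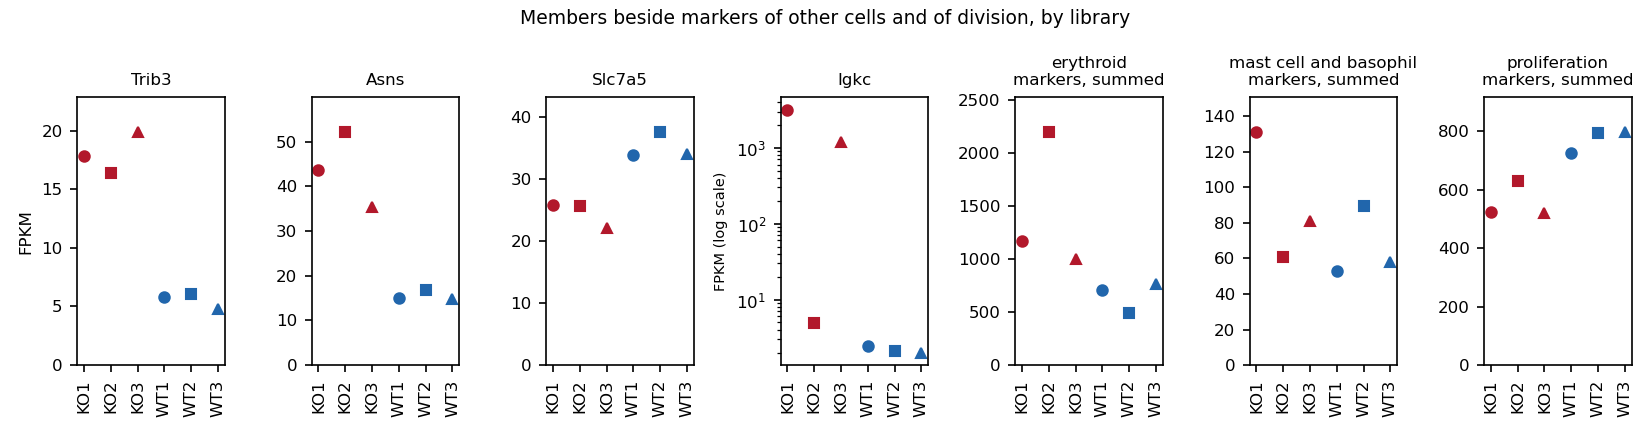
FPKM (y axes; log scale for Igkc) of Trib3, Asns, Slc7a5, Igkc and the summed erythroid, mast cell and proliferation markers in each library, labelled KO (red) and WT (blue). Trib3 and Asns are high in all 3 KO-labelled libraries, Igkc is high in replicates 1 and 3, and the erythroid sum is highest in replicate 2.

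The genes most like each of the 3 that chose the set were found by Pearson's r of log2(FPKM + 1) over the 6 libraries, among tested genes other than predicted models and pseudogenes. For Trib3 they were Scoc (0.9985), Golga7 (0.9976) and Poglut1 (0.9969). For Asns they were Gbp2b (0.9971), Rbm45 (0.9962) and Nif3l1 (0.9957), and reads of Gbp2b may be shared with near-identical relatives. For Slc7a5 they were Zfp367 (0.9956), Parp1 (0.9954) and Phgdh (0.9943), the last of these a member itself. With 6 libraries in 2 groups these values largely restate the distance between the groups, and they are given as a description.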

How the data were processed

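The members and gene lists were chosen with earlier results of these data known. The deposited values are FPKM, 1 column per library, scaled by the authors. Per the submitters' processing notes, HTSeq (0.6.1), TopHat2 (2.1.1), DESeq2 (1.18.1), bcl2fastq (2.19.1.403) and the mm10 build were used, in roles not stated there. No source used here gives the annotation. Per the labels' protocols, cDNA came from the SMART-Seq v4 kit and libraries from Nextera XT, which do not mark strand. No exon of a member overlapped another gene in GENCODE M21.

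Within a gene, FPKM values stood to each other as whole numbers after library scaling in all 17183 genes above 0 in at least 2 libraries (relative tolerance 1e-09). Reads were recovered as these numbers, with lengths matched to GENCODE M21 (50.5% of genes above 0 matched; Atf4, Mthfd2 and Slc7a11 did not, so their reads may be lower bounds).

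KO-labelled libraries were set against WT-labelled ones in limma 3.58.1 (R 4.3.3; lmFit, eBayes with trend), two-sided. Genes averaging 1 FPKM or more over the 6 libraries entered as log2(FPKM + 1), with p-values Benjamini-Hochberg adjusted over 11371 genes. This scale understates folds of low genes. The script was tested on simulated data. Named genes were all members, 21 fixed pathway genes and up to 4 called genes of each list. Python 3.11.15, scipy 1.17.1 and matplotlib 3.10.9 were used.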

Additional observations from a re-analysis of the deposited data

How the results depend on the processing

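Over 15 alternatives the log2 fold changes of Trib3, Asns and Slc7a5, the values that chose the set, ran from 1.41 to 1.71, 1.29 to 1.69 and -0.54 to -0.43, given as a description. Of 595 fold changes of 40 genes, 453 kept direction and side of the threshold, 128 lost a call, 5 gained one and 9 changed sign. Against 1240 genes called, and 9 higher and 7 lower in the pathway, 588, 2 and 1 were called with no filter on low values, and 514, 3 and 2 without KO replicates 1 and 3. The pathway counts were 3 higher and 2 lower with no trend, and 4 lower at equal summed FPKM. Leaving out 1 library gave 370 to 1598 genes, 1 to 11 pathway genes higher and 0 to 8 lower. The replicate block gave 805 genes and 6 higher and 2 lower pathway genes. Deviations of same-numbered libraries correlated at -0.0311, 0.045 and -0.116, so no deviation shared by replicate number across genes was seen. These values cannot exclude a pairing with a small effect.

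Leaving out 1 library moved Atf4 between -0.0050 and 0.31, Psat1 between -0.23 and 0.0011, Ddit3 between -0.0092 and 0.39 and Sesn3 between -0.14 and 0.11. Sesn3 was -0.0065 at equal summed FPKM and -0.059 without KO replicates 1 and 3, where Sesn1 was -0.13. The cause was not tested. In settings with 1 KO library, it is assumed to vary like the others. Fits with edgeR and DESeq2 were not run, because the deposited unit is FPKM, and voom on recovered reads, chosen after seeing the data, called 1591 genes. At 5243325 to 7143202 reads, Chac1 and Slc7a11 were too low for the test.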

Other observations

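Within the KO-labelled libraries the members did not keep a common order. Replicate 1 was the highest of its group in Atf4 (77.7 FPKM) and the lowest in Mthfd2 (4.99 FPKM), and it held 2 reads of Chac1. Replicate 2 was the highest in Asns (52.1 FPKM), Sesn2 (13.8 FPKM) and Chac1 (18 reads). Replicate 3 was the highest in Trib3 (19.9 FPKM) and the lowest in Atf4 (50.03 FPKM). Ddit3 and Ppp1r15a followed the order of Atf4 in these 3 libraries, at 17.5, 14.4 and 9.58 FPKM and at 244, 209 and 154 FPKM. So did the markers Mpo, at 918, 702 and 384 FPKM, and Nkg7, at 291, 241 and 187 FPKM, while Trib3 and Asns did not. An order shared over 3 libraries was seen after the fact and is given as a description.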
